A study of Rattus norvegicus with 34 samples.

Results

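Sperm of F2 males was compared with sperm of F1 males within 1 lineage of rats descended from ifosfamide-treated grandsires and sires, over every 1 kb window of the autosomes. The windows were all those on chromosomes 1 to 20, 2618741 of the 2782040 windows counted, and no measured value was used to choose them. The pools were the 6 F2 ifosfamide and 6 F1 ifosfamide pools, 12 of the 18 libraries with counts used here and of the 34 libraries in the labels. The 6 F1 control pools stayed out of the main tests between generations and served to grade the windows by signal and by position. Among the alternative fits, some used them in the fit or in the count filter.

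The animals were outbred Hsd: Sprague Dawley SD rats. Founder (F0) males received 8.5 mg/kg ifosfamide, an alkylating chemotherapy drug, into the peritoneum on days 26, 29 and 32 of age, while founder males of the control lineage received 1.1 mL/kg phosphate-buffered saline. No F1 or F2 animal was treated, and F2 rats came from unrelated F1 rats of the same lineage mated at 80 to 90 days of age. An F1 ifosfamide pool held sperm DNA of 3 to 4 males and an F2 ifosfamide pool that of 8 to 9 males, all of it from mature sperm of the cauda epididymis. The labels count 18 F1 and 43 F2 ifosfamide males, whereas 6 pools of 8 to 9 males would need 48 to 54. The labels thus do not settle how males were spread over the F2 pools. All p-values below take the pools as independent, which would not hold for F2 pools that shared males. They also do not allow for the larger number of males in an F2 pool. F2 control pools were not analysed here. Generation, pool size, the animals used and the preparation of the libraries therefore cannot be told apart in this comparison. Nothing in the labels says whether pools were prepared on separate days, so the tests measure only the spread between pools.

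In MeDIP-seq an antibody to methylated cytosine pulls down methylated DNA fragments, which are then sequenced and counted along the genome. Signal in a window rises with the methylation of its cytosines, with the density of CpG sites and with the number of copies of the sequence. Sperm DNA is methylated over most of the genome outside CpG islands, and methylation is erased and set anew in the germ line of each generation.

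Libraries held 25531658 to 39440265 window counts in F1 ifosfamide, 27424144 to 36309987 in F2 ifosfamide and 23336048 to 34051679 in F1 control. Signal is given on the counts-per-million scale (CPM), which relates the counts of a window or bin to all window counts of its library. A read was counted in 1.17 to 1.25 windows in F1 ifosfamide and in 1.16 to 1.23 windows in F2 ifosfamide, so neighbouring windows share reads. Some pools stood apart. F1 pools 1 and 2 and F2 pool 1 lay between the other pools of both generations, and F1 pool 5 had the lowest depth of its group and an unusual distribution of counts over chromosomes. Many of the results that follow are also given with 1 or more pools left out. Without an annotation of Rnor_6.0, windows are named by position, and the sperm label could not be checked against marker genes.

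Signal differed between the generations in a small share of windows, in both directions and on every autosome. Of 1041788 autosomal windows with enough counts to test, 20944 (2.01%) differed at an adjusted p below 0.05 in edgeR's quasi-likelihood test with Benjamini-Hochberg adjustment. F2 was higher in 12137 of them (1.17% of tested windows) and lower in 8807 (0.845%). The median log2 fold change of F2 over F1 was 0.69 among the higher windows and -0.72 among the lower ones. The 6 F2 and the 6 F1 values did not overlap in 6516 called windows, 31.1% of the calls, while they did not overlap in 1.32% of all tested windows. Single pools moved the number of calls strongly. It was 35107 without F1 pool 1, 8118 without F1 pool 3, 12982 without F1 pool 4 and 12558 without F1 pool 6. It was 13777, 8596, 9178, 13654 and 12809 without F2 pools 2, 3, 4, 5 and 6. Higher and lower calls were 15038 and 12623 without F1 pool 2, and 9665 and 5219 without F1 pool 5. Without F2 pool 1 they were 16838 and 13385. Without the 3 intermediate pools, a choice made after seeing the data, 77077 windows were called, 39164 higher and 37913 lower, and DESeq2 called 7737.

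The first question was which signal levels carried the difference. Windows were graded by their mean CPM in the F1 control pools, which took no part in the contrast. Few weak windows could be tested: 0 of the 675078 windows below 0.1 CPM and 67519 of the 894388 windows from 0.1 to below 0.3 CPM passed the count filter. Among tested windows the share called rose with signal, from 0.481% at 0.1 to below 0.3 CPM to 1.40% at 0.3 to below 1 CPM and 4.62% at 1 to below 3 CPM. It reached 20.3% of the 6714 windows at 3 to below 10 CPM and 25.2% of the 749 windows at or above 10 CPM. Precision rose along with signal, and more precise windows are called more easily. The median standard error of the log2 fold change was 0.27 at 0.1 to below 0.3 CPM and 0.12 at or above 10 CPM. How much of the rise in the share called came from precision was not tested.

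Most calls in number came from the middle of the range. The class from 0.3 to below 1 CPM held 11124 calls and the class from 1 to below 3 CPM held 7942, against 1364 and 189 in the highest classes. These numbers moved with single pools and with the tool. At 0.3 to below 1 CPM there were 19179, 3867, 6397, 7415 and 6441 calls without F1 pools 1, 3, 4, 5 and 6. Without F2 pools 1 to 6 in turn there were 17135, 6810, 4045, 4208, 6741 and 6167. At 1 to below 3 CPM there were 13097, 3193, 5057 and 4686 without F1 pools 1, 3, 4 and 6, and 3406, 3725 and 5089 without F2 pools 3, 4 and 6. DESeq2 called 2016 and 4463 windows in these classes, so that the order of the classes turned. It gave no adjusted p for 646392 tested autosomal windows, however, and these count as not called. The turned order may therefore rest on windows that DESeq2 did not judge. The median size of the log2 fold change, taken without its sign over tested windows, was 0.20 at 0.3 to below 1 CPM, 0.17 at 1 to below 3 CPM, 0.21 at 3 to below 10 CPM and 0.19 at or above 10 CPM. Its median standard error fell over the same classes, from 0.22 to 0.15, 0.12 and 0.12. Unsigned differences include counting error, which fell with signal, so these sizes are not compared between classes.

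Direction differed between the classes. Calls were nearly even at 0.3 to below 1 CPM, with 5501 higher and 5623 lower in F2. At 1 to below 3 CPM 5092 were higher and 2850 lower, an excess that shrank or was lost in some fits. With the number of windows per read as a covariate 8269 were higher and 8278 lower there, and without the 3 intermediate pools 13772 and 13047. At 3 to below 10 CPM 1219 were higher and 145 lower, and at or above 10 CPM 155 were higher and 34 lower. The excess of higher calls in the highest class was smaller under a scaling that varies with abundance, with 117 higher and 93 lower calls. At 3 to below 10 CPM that scaling gave 1008 higher and 261 lower. It is fitted to each pool's signal against abundance, so it can take out a shift common to strong windows. Without the 3 intermediate pools these classes held 1834 higher and 763 lower, and 238 higher and 93 lower. The number of calls at 3 to below 10 CPM was 787 without F1 pool 3 and 857 without F2 pool 3.

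From 1 CPM up, the F1 control pools varied more among themselves in called windows than in the others. The median SD of log2 CPM over the 6 control pools was 0.32 in called windows and 0.25 in the others at 1 to below 3 CPM. At 3 to below 10 CPM it was 0.33 and 0.19. At or above 10 CPM the values were 0.35 and 0.17. At 0.3 to below 1 CPM, by contrast, they were 0.38 and 0.37, and over all tested windows 0.351 and 0.355. The part of this variation in the generation difference was not tested.

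The second feature that set called windows apart was a weak surround. Each window was compared with the mean control signal of the windows on either side. At or above 10 CPM, 74 of the 111 windows whose neighbours averaged below 0.1 of their own signal were called (66.7%), 73 higher and 1 lower. Where the neighbours had at least 0.6 of the window's signal, 54 of 348 were called (15.5%), 30 higher and 24 lower. At 3 to below 10 CPM the share called was 59.3% of 403 windows with the weakest surround, 31.3% of 1584, 13.8% of 2933 and 12.5% of 1794 with the strongest. The same order held at 1 to below 3 CPM, from 15.1% down to 3.31%, and the median standard error was 0.15 in all 4 groups of that class.

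**Figure D1:**
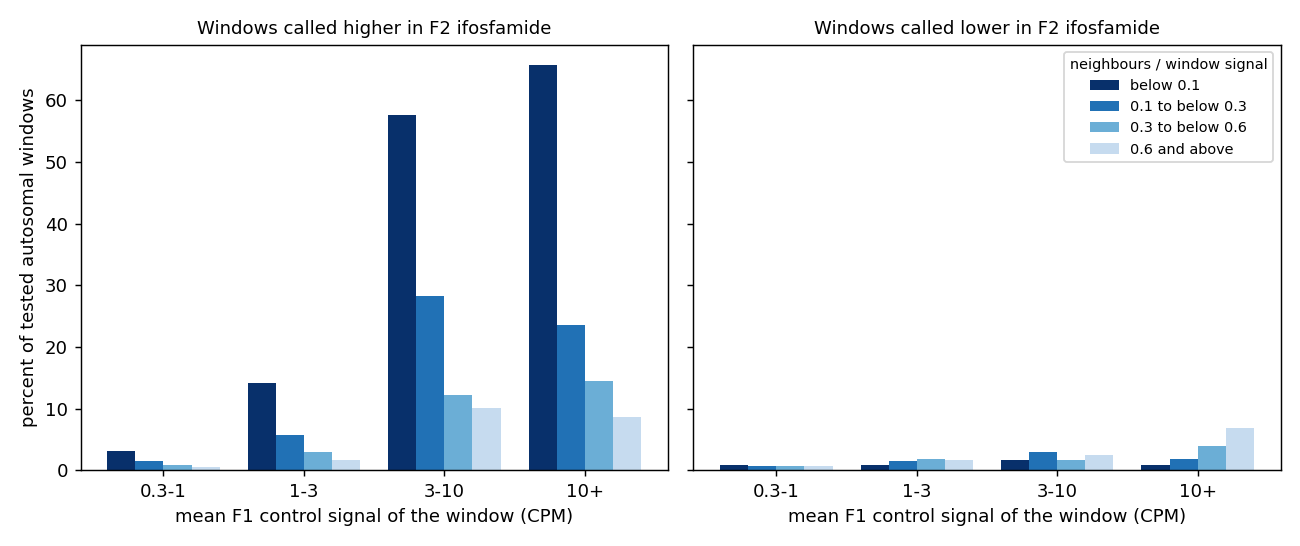
Percent of tested autosomal windows called higher (left) or lower (right) in F2 than in F1 ifosfamide, against the mean F1 control signal of the window in CPM, with 1 bar for each ratio of the neighbours' signal to the window's own. Higher calls reach their largest share in strong windows with weak neighbours, while lower calls stay below 10% in every group.

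Windows standing alone between much weaker neighbours were therefore examined as a set. A window was termed isolated where its counts summed over the 6 control pools were at least 60 and at least 10 times those of either neighbour, which 2886 autosomal windows met. Of 2842 tested, 461 were called (16.2%), 429 higher and 32 lower in F2. At or above 10 CPM 68 of 96 isolated windows were called (70.8%), against 121 of 653 other windows (18.5%). At 3 to below 10 CPM 153 of 248 were called (61.7%), against 1211 of 6466 (18.7%), with median standard errors of 0.13 and 0.12. Most isolated windows were weaker, 1485 of them at 0.3 to below 1 CPM and 1057 at 1 to below 3 CPM. At 1 to below 3 CPM 176 were called (16.7%), 169 higher and 7 lower, against 4.55% of other windows. At 0.3 to below 1 CPM 64 of 1441 tested were called (4.44%), 45 higher and 19 lower, against 1.39%.

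The shift of the strongest isolated windows was common to nearly all of them. Of the 96 at or above 10 CPM, spread over all 20 autosomes, 90 had a log2 fold change above 0. The median was 0.61, the quartiles were 0.32 and 0.67 and the extremes were -0.60 and 1.77. Calls in this group were higher in F2 for 97.1% to 98.5% when any 1 pool was left out, for 96.8% under the abundance-dependent scaling and for 96.1% without the 3 intermediate pools. Calls in non-isolated windows of the same class were more mixed: 88 were higher and 33 lower, and 57 higher and 91 lower under the abundance-dependent scaling. Because that scaling can take out a shift common to strong windows, its counts do not settle the direction of these windows.

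Since adjacent windows share reads, the classes were next measured as 1 value per pool, the percent of autosomal counts they held, and compared by an exact two-sided permutation test over all splits of the 12 pools into 6 and 6. Isolated windows held 0.503% of counts in the lowest F1 pool, 0.540% at the median and 0.595% in the highest. In F2 these were 0.627%, 0.671% and 0.696%. Every F2 pool lay above every F1 pool, with means of 0.544% ± 0.0300 and 0.667% ± 0.0315 (SD, n = 6 each, exact permutation p = 0.00216, the smallest these splits can give). F1 control pools had a mean of 0.658% and ran from 0.544% to 0.746%, and 5 of the 6 lay above every F1 ifosfamide pool. Isolated windows were chosen for high counts in these same control pools, which can raise the control share. Control and ifosfamide shares are therefore not compared. The difference of 0.123 percentage points was 0.114 to 0.133 when any 1 pool was left out.

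At 3 to below 10 CPM the share of counts rose from 2.72% ± 0.0471 in F1 to 2.95% ± 0.0742 in F2 (SD, n = 6 each, exact permutation p = 0.00216, adjusted over 6 classes p = 0.0130). The F1 pools ran from 2.64% to 2.77% and the F2 pools from 2.85% to 3.05%, without overlap. Isolated windows were not the whole of this rise: the other windows of the class went from 2.62% to 2.82%, again without overlap (adjusted exact permutation p = 0.00649). At or above 10 CPM the shares of 2.48% ± 0.0854 and 2.53% ± 0.114 overlapped and did not pass the test (adjusted exact permutation p = 0.649, n = 6 each). Within that class isolated windows rose from 0.202% to 0.255% without overlap (adjusted exact permutation p = 0.00649), whereas the other windows held 2.27% and 2.28% (adjusted exact permutation p = 0.961). The 4 classes below 3 CPM overlapped between generations, with adjusted exact permutation p from 0.506 to 0.983.

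**Figure D2:**
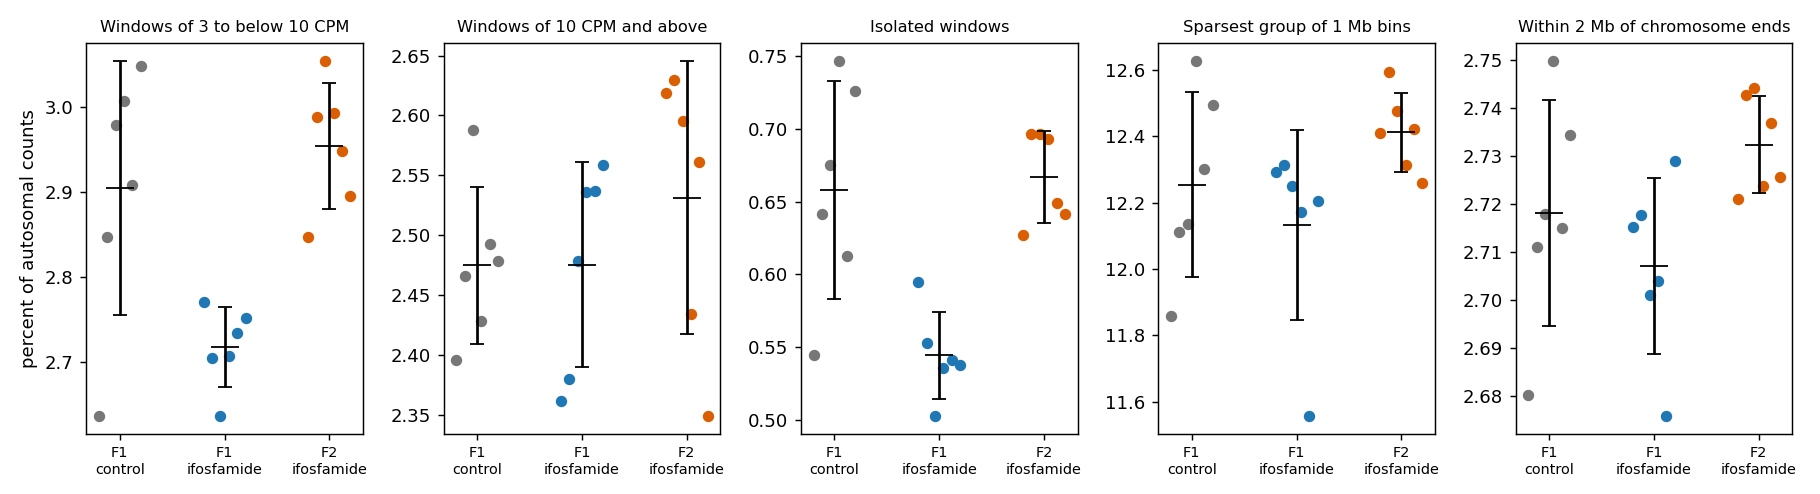
Percent of autosomal counts in 5 sets of windows, 1 point per pool (6 pools per group), with black bars for mean ± SD; each panel has its own vertical axis, which does not start at 0. F1 and F2 ifosfamide do not overlap at 3 to below 10 CPM or in isolated windows and they overlap in the other 3 panels.

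Single windows show what these differences look like in the pools. The windows named here had the smallest p in their signal class and direction. On chromosome 14, at 54147001-54148000 (Rnor_6.0), an isolated window had 3.43, 5.49 and 9.43 CPM in the lowest, median and highest F1 pool and 11.8, 21.1 and 24.2 CPM in F2. The generations did not overlap, and the log2 fold change was 1.77 (SE 0.14, adjusted p = 2.7e-16, edgeR). F1 control pools ran from 4.31 to 19.9 CPM across most of that span. The isolated window at chromosome 2, 127567001-127568000, had 5.28, 6.58 and 7.89 CPM in F1 and 10.8, 12.4 and 14.8 CPM in F2, again apart (log2 fold change 0.93, SE 0.11). In the lower direction the pools of this class overlapped. At chromosome 1, 11908001-11909000, F1 had 22.0, 33.3 and 48.3 CPM and F2 had 18.1, 20.8 and 25.4 CPM (log2 fold change -0.66, SE 0.13). At chromosome 14, 46644001-46645000, F1 had 31.4, 48.5 and 76.5 CPM and F2 had 27.5, 31.1 and 39.0 CPM (log2 fold change -0.68, SE 0.13). This last window was not called by DESeq2 (adjusted p = 0.0562). The other 19 of the 20 named windows were called under every alternative that gave them an adjusted p. DESeq2 gave none for 5 of them, the 4 windows at 0.1 to below 0.3 CPM and the one at 123767001-123768000 of chromosome 8. The 20 windows are given here and in the next paragraphs, and their adjusted p in edgeR ran from 2.7e-16 to 0.00235.

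At 3 to below 10 CPM both named higher windows kept the generations apart. At chromosome 3, 36093001-36094000, an isolated window, F1 had 1.16, 2.16 and 4.82 CPM and F2 had 5.26, 12.3 and 13.2 CPM, a log2 fold change of 1.93 (SE 0.16). At chromosome 4, 36270001-36271000, F1 had 2.06, 2.91 and 3.98 CPM and F2 had 4.87, 9.30 and 12.6 CPM, a log2 fold change of 1.58 (SE 0.14). Both named lower windows lay on chromosome 18 and overlapped at 1 end of the range. At 71139001-71140000 F1 had 4.62, 6.41 and 7.51 CPM and F2 had 2.53, 3.55 and 5.29 CPM (log2 fold change -0.80, SE 0.13). At 3917001-3918000 F1 had 3.70, 5.92 and 7.63 CPM and F2 had 2.40, 3.03 and 4.60 CPM (log2 fold change -0.84, SE 0.14), where F2 pool 1 was the highest of its group.

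**Figure D3:**
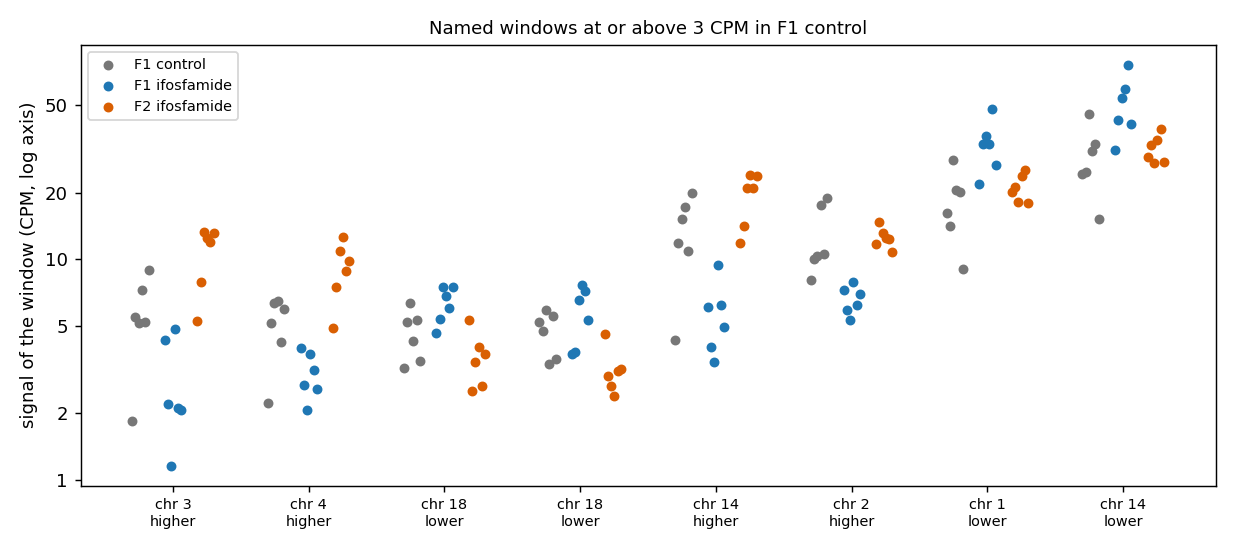
Signal in CPM, on a log axis, of the 8 named windows at or above 3 CPM in F1 control, 1 point per pool and 6 pools per group, labelled by chromosome and by the direction of F2 against F1 ifosfamide. The 4 higher windows separate the generations, and the 4 lower windows overlap. The control mean lies between the generation means in 5 windows and beyond F2 in the other 3, on chromosomes 1 and 2 and at 46644001 of chromosome 14.

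At 1 to below 3 CPM 1 of the 2 named higher windows was at chromosome 3, 118675001-118676000. F1 had 0.0761, 0.396 and 1.10 CPM there and F2 had 1.21, 2.12 and 3.07 CPM, a log2 fold change of 2.16 (SE 0.22). At chromosome 2, 155784001-155785000, F1 had 0.687, 1.28 and 1.94 CPM and F2 had 1.93, 5.21 and 6.76 CPM, touching at 1 pool (log2 fold change 1.76, SE 0.17). The lower windows were at chromosome 13, 108676001-108677000, and chromosome 1, 56026001-56027000. In the first, F1 had 2.28, 2.56 and 4.62 CPM and F2 had 1.15, 1.35 and 1.76 CPM (log2 fold change -0.99, SE 0.15). In the second, F1 had 2.79, 3.22 and 4.06 CPM and F2 had 0.975, 1.79 and 2.18 CPM (log2 fold change -0.93, SE 0.14). Both separated the generations.

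In the weakest classes that could be tested, differences rested on few counts and the named ones were large. At 0.3 to below 1 CPM the named windows were chromosome 14, 52509001-52510000 (log2 fold change 1.73, SE 0.19), and chromosome 1, 275464001-275465000 (1.52, SE 0.19), which were higher. The lower ones were chromosome 8, 123767001-123768000 (-1.74, SE 0.25), and chromosome 1, 262990001-262991000 (-1.32, SE 0.20). The first of these 4 had 0.335, 0.422 and 0.560 CPM in F1 and 0.716, 1.56 and 1.98 CPM in F2. All 4 separated the generations. At 0.1 to below 0.3 CPM the named windows were chromosome 17, 61469001-61470000 (1.28, SE 0.25), chromosome 4, 110724001-110725000 (1.33, SE 0.27), chromosome 2, 148842001-148843000 (-1.72, SE 0.31), and chromosome 8, 58108001-58109000 (-1.27, SE 0.25). Of these, the window on chromosome 4 overlapped, with F1 at 0.0783, 0.157 and 0.448 CPM and F2 at 0.392, 0.531 and 0.766 CPM.

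The next question was where in the genome the difference lay. Called windows were spread over all autosomes, from 1.81% of tested windows on chromosome 8 to 2.51% on chromosome 12. Between 50.7% of the calls (chromosome 20) and 63.2% (chromosome 1) were higher in F2. The percent of autosomal counts that each chromosome held passed the exact two-sided permutation test for 0 of 20 autosomes, with a lowest adjusted p of 0.108 on chromosomes 17 and 20. Without F1 pool 5 chromosomes 11 and 17 passed, each with an adjusted exact permutation p of 0.0433. Chromosome 11 then held 3.22% in F1 and 3.21% in F2, and chromosome 17 held 3.55% and 3.53%.

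Chromosome ends carried slightly more signal in F2. The outer 2 Mb at both ends of each autosome held 2.68%, 2.71% and 2.73% of counts in the lowest, median and highest F1 pool and 2.72%, 2.73% and 2.74% in F2. Pools overlapped, and the means of 2.71% ± 0.0184 and 2.73% ± 0.0102 differed by 0.0253 percentage points (SD, n = 6 each, exact permutation p = 0.0130). With the outer 1 Mb the difference was 0.0109 (exact permutation p = 0.102), and with 5 Mb it was 0.000979 (exact permutation p = 0.959). By window, 67.5% of the 314 calls between 1 and 2 Mb from an end were higher in F2, against 50.9% of the 2270 calls between 5 and 10 Mb and 58.7% of the 16992 calls farther in.

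Broad differences were sought by summing counts over fixed 1 Mb bins, where counting error is small. Of 2629 autosomal bins 218 (8.29%) were called by edgeR's quasi-likelihood test with Benjamini-Hochberg adjustment, 109 higher (4.15%) and 109 lower (4.15%) in F2. These differences were small, with a median log2 fold change of 0.07 in higher and -0.06 in lower bins and extremes of 0.28 and -0.27. The number of called bins was 56, 78, 421 and 98 without F1 pools 3, 4, 5 and 6, and 66, 50, 67, 84 and 144 without F2 pools 2, 3, 4, 5 and 6. Called bins lay on all 20 autosomes. In the narrower 100 kb bins, tried after seeing the data, 883 of 26168 were called (3.37%), 461 higher (1.76%) and 422 lower (1.61%).

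Direction followed the baseline signal of the bin. Bins were ranked by F1 control signal and split into 5 groups of nearly equal size. The sparsest group, with at most 0.263 CPM per kb in F1 control, included 56 higher and 0 lower ones. The densest group, with at least 0.462 CPM per kb, included 9 higher and 43 lower. The median log2 fold change fell through the 5 groups from 0.03 to 0.01, -0.0046, -0.01 and -0.03. This order was opposite to that of single windows, where the strongest ones were mostly higher in F2. It was kept when isolated windows and windows at or above 10 CPM were left out of the sums, with 34 higher and 0 lower in the sparsest group and 3 higher and 39 lower in the densest. The counts rested on single pools. Higher bins of the sparsest group were 18, 24 and 25 without F1 pools 3, 4 and 6, and 19, 19, 22 and 22 without F2 pools 2, 3, 4 and 5. Lower bins of the densest group were 8, 12 and 19 without F1 pools 3, 4 and 6, and 8, 6, 11 and 15 without F2 pools 2, 3, 4 and 5. Without F1 pool 5 the densest group held 43 higher and 80 lower bins with a median of -0.01, and the sparsest held 57 higher and 2 lower with a median of 0.02. With any 1 pool left out, the median ran from 0.02 to 0.03 in the sparsest group and from -0.03 to -0.01 in the densest.

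**Figure D4:**
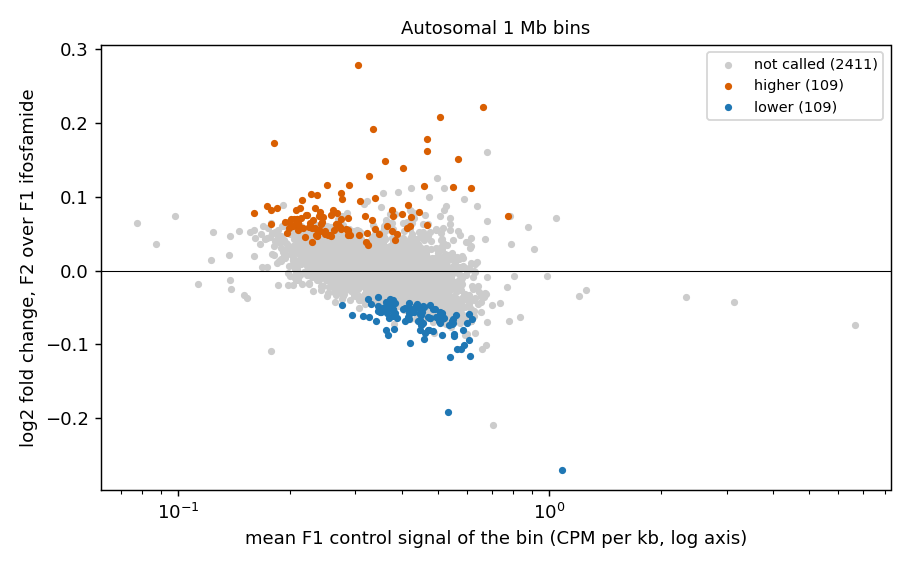
Log2 fold change of F2 over F1 ifosfamide in 2629 autosomal bins of 1 Mb against the mean F1 control signal per kb of the bin (log axis); each point is a bin, coloured by call. Higher bins gather at low control signal and lower bins at high control signal.

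As 1 value per pool, the sparsest group held 12.1% ± 0.286 of autosomal counts in F1 and 12.4% ± 0.119 in F2 (SD, n = 6 each, exact permutation p = 0.0108, adjusted over 5 groups 0.0541). The densest group held 30.4% ± 0.685 and 30.0% ± 0.129 (adjusted exact permutation p = 0.230). Neither passed after adjustment, and the pools overlapped in both. F1 pool 5 held the lowest share in the sparsest group among the F1 pools. Without it the difference there was 0.164 percentage points in place of 0.279 (adjusted exact permutation p = 0.108). With isolated windows and windows at or above 10 CPM left out of the counts, 2 groups passed. The sparsest then held 12.4% in F1 and 12.7% in F2, and the fourth group held 23.4% and 23.3% (adjusted exact permutation p = 0.0433 for each, n = 6 pools per generation), with pools that overlapped in both.

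The named higher bins and the named lower bins were built differently. In 4 of the 5 higher bins with the smallest p, 1 isolated window or a few strong ones made up most of the difference. The bin at chromosome 1, 36000001-37000000, went from 417 ± 8.93 CPM in F1 to 468 ± 10.2 in F2 (SD, n = 6 each), a log2 fold change of 0.16 (SE 0.02). Its window at 36361001-36362000 made up 81.7% of that difference, and without isolated and strongest windows the bin's log2 fold change was 0.03 (adjusted p = 0.124, edgeR). The last bin of chromosome 11, at 90000001-90464000, went from 118 ± 6.34 to 144 ± 5.45 CPM, and the final window of the chromosome, at 90463001-90464000, made up 89.9% of the difference. At chromosome 15, 78000001-79000000, the window at 78122001-78123000 made up 88.7%. At chromosome 14, 65000001-66000000, the leading window made up 36.0% and the leading 3 made up 70.4%. Part of this bin's shift was broad: 67.5% of its 123 tested windows had a log2 fold change above 0. Without isolated and strongest windows its log2 fold change was 0.07 (adjusted p = 0.0505, edgeR). The bin at chromosome 2, 217000001-218000000, was broader, with 27.6% from its leading window and a call that stayed without isolated and strongest windows (log2 fold change 0.07, adjusted p = 0.0215, edgeR).

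In each of the 5 lower bins the leading window made up 2.06% to 4.15% of the difference, and the shift was spread over 408 to 645 tested windows. The bin at chromosome 10, 73000001-74000000, had 370 ± 2.76 CPM in F1 and 350 ± 5.99 CPM in F2 (SD, n = 6 each), without overlap, a log2 fold change of -0.08 (SE 0.01). Of its 440 tested windows 7 were called lower and 3 higher, and 40.9% had a log2 fold change above 0. The bin at chromosome 16, 46000001-47000000, went from 572 ± 9.43 to 539 ± 8.78 CPM, with 37.1% of 645 tested windows above 0. The other 3 lower bins were on chromosome 2, at 117000001-118000000 (log2 fold change -0.07), 254000001-255000000 (-0.07) and 258000001-259000000 (-0.09). All 5 stayed called without isolated and strongest windows.

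At the scale of single windows the differences were mostly local. Windows directly next to each other, which share reads, had the same sign in 59.8% of pairs, but at 2 kb this was 51.9% and at 100 kb 50.6%. Around windows called higher the share of the same sign was 51.3% at 2 kb and 49.5% at 100 kb. Around windows called lower it was 58.1% and 55.0%. These shares describe windows of the same pools and carry no test.

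Some calls nevertheless lay in runs, each of 5 or more windows that were called with the same sign and started within 100 kb of the next. Such runs are chosen by their calls, and adjacent windows share reads. How many runs the same number of calls would give if spread at random was not tested. Over all tested windows 1.17% were called higher and 0.845% lower. Runs held 2404 windows called higher (352 runs, 19.8% of higher calls) and 1286 called lower (207 runs, 14.6%). The longest higher run had 26 called windows among 294 tested at chromosome 12, 50742001-51201000, with none called lower. The next were at chromosome 12, 49353001-50211000 (23), chromosome 1, 100230001-100602000 (22), chromosome 7, 119434001-120004000 (22), and chromosome 3, 174655001-175254000 (20). The longest lower run had 14 among 187 tested at chromosome 19, 141001-437000, close to the start of the chromosome. It was followed by chromosome 15, 103696001-103868000 (12), chromosome 18, 64933001-65378000 (12), chromosome 9, 37946001-38200000 (12), and chromosome 1, 7627001-8038000 (11). Several runs also held calls of the other sign, 4 in the second and 6 in the last of these higher runs, and 4, 1, 3 and 6 in the lower runs on chromosomes 19, 15, 18 and 1. In the order given, windows that were not called had a median log2 fold change of 0.04, -0.0036, 0.11, 0.08 and -0.06 in the higher runs. In the lower runs it was -0.11, -0.14, -0.07, -0.15 and -0.06. Summed over the whole run, the pools of the generations overlapped in every named run except the lower one on chromosome 15. There the lowest F1 pool had 173.7 CPM and the highest F2 pool 173.5 CPM. Over the whole run on chromosome 3 the pools summed to 322 to 362 CPM in F1 and 325 to 356 CPM in F2.

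F1 control pools mostly lay between the generations in called windows. Among windows called higher in F2 the control mean fell between the means of F1 and F2 ifosfamide in 92.1%, and beyond F2 in 6.49%. Among those called lower it fell between in 96.6%. The median position of the control mean, on a scale where F1 ifosfamide is 0 and F2 ifosfamide is 1, was 0.53 in higher and 0.49 in lower windows. The windows were chosen for the distance between the generations, so these positions are a description.

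Single pools were placed along a related scale, built from mean log2 CPM over windows called higher minus that over windows called lower. Each ifosfamide pool was placed by windows called without it, with the other ifosfamide pools setting 0 and 1. F1 pools 1 to 6 lay at 0.59, 0.46, -0.05, 0.19, 0.09 and 0.18, and F2 pools 1 to 6 at 0.44, 0.77, 0.92, 0.94, 0.77 and 0.79. Of the ifosfamide pools, F1 pools 1 and 2 and F2 pool 1 thus lay nearest the middle. Each of them has its own windows and its own 0 and 1, so their order is not fixed. Before scaling, the values were 0.35 and 0.23 for F1 pools 1 and 2 and 0.41 for F2 pool 1. F1 control pools 1 to 6 lay at 0.18, 0.46, 0.45, 0.82, 0.35 and 0.75, so the spread among control pools of 1 generation covered much of the distance between the generations of the ifosfamide lineage. Mitochondrial counts moved with generation too: 14 of 17 mitochondrial windows were called higher in F2. Together these windows had 7.18 to 65.5 CPM in F1, 39.6 to 103 CPM in F2 and 19.1 to 75.8 CPM in F1 control, and their part in the autosomal differences was not tested.

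**Figure D5:**
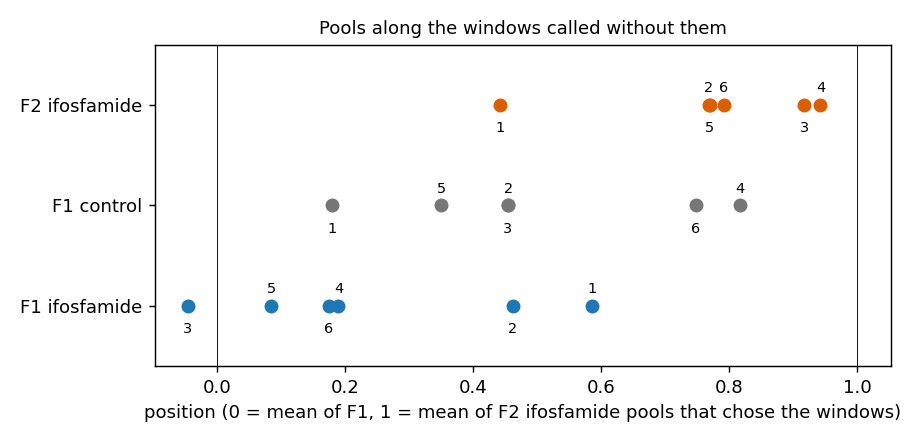
Position of each pool, labelled by its number, on a scale where 0 is the mean of the F1 and 1 the mean of the F2 ifosfamide pools, over windows called without that pool (for F1 control, over all called windows). F2 pools 2 to 6 lie at or above 0.77, F2 pool 1 lies near the middle with F1 pools 1 and 2, and F1 control pools range from 0.18 to 0.82. Each ifosfamide pool has its own windows, so nearby positions are not ranked.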

How the data were processed

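Both deposited tables used here were joined by chromosome, start and stop, and their 6 F1 control columns were identical. Per the file headers they hold read counts per 1 kb window (1000 bases) made by the authors, as whole numbers without normalization. RPKM values deposited by the authors beside them served only to recover the number of reads per library. The submitters' processing notes name Rnor_6.0 as the genome build. They list FastQC and Trimmomatic, then SAMtools beside Bowtie2, and edgeR. Versions of these tools: not given in the sources used here. The authors' group means, fold changes and p-values were not used.

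Counts of the 12 ifosfamide pools, all chromosomes included, were fitted with edgeR 4.0.16 (limma 3.58.1, R 4.3.3) using TMM factors, filterByExpr with a minimum count of 10, and the two-sided quasi-likelihood test. P-values were adjusted by Benjamini-Hochberg over all windows, and windows below 0.05 were called. Percents of counts per pool were compared by exact permutation. Counts are of reads without molecular identifiers, and depth sets the precision of single windows.

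Named windows are the 2 higher and 2 lower windows with the smallest p in each signal class, at least 1 Mb apart. Named bins are the 5 per direction with the smallest p, and named runs the 5 per direction with the most called windows. Windows, classes and rules were chosen with earlier results of these data known. Alternatives were other scalings and filters, DESeq2 1.42.0, limma-trend with a prior count of 2, the replicate block and each pool left out. A fit of all 3 groups and a count filter on the F1 control pools were among them. The 3 intermediate pools and the 100 kb bins were set after seeing the data, as were the split of isolated windows by class and the percents by bin density. Same-numbered F1 and F2 pools did not deviate together (r of -0.12 to -0.01 over windows), so numbers were not taken as pairs. Planned checks of genes, CpG counts and imprinted regions were not run, for lack of an annotation of this build.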

Additional observations from a re-analysis of the deposited data

Results flagged for a closer look

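In groups of 6 pools, a pool was singled out where its gap to the nearest other pool exceeded the critical value of Dixon's test. Of 116 groups examined 17 had such a pool, and chance alone flags about 1 in 20. F1 ifosfamide pool 5 was the one singled out in 13 of them. It held the highest percent of autosomal counts of its group in windows below 0.1 CPM (3.98%) and the lowest at 0.3 to below 1 CPM (47.1%). It held the lowest percent on chromosomes 2 (8.83%), 4 (6.51%), 11 (3.16%), 15 (3.95%) and 18 (3.22%). On chromosomes 5 (6.45%), 10 (4.88%), 12 (2.79%) and 20 (2.68%) it held the highest. It was also the highest F1 pool in the window at chromosome 13, 108676001-108677000 (4.62 CPM), and the lowest in the bin at chromosome 2, 254000001-255000000 (440.0 CPM).

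F1 ifosfamide pool 6 was the lowest of its group in the window at chromosome 1, 262990001-262991000 (0.639 CPM). F2 ifosfamide pool 1 was the highest of its group in the window at chromosome 18, 3917001-3918000 (4.60 CPM), and in the bin at chromosome 2, 258000001-259000000 (467.8 CPM). F2 ifosfamide pool 2 was the highest in the bin at chromosome 14, 65000001-66000000 (195.6 CPM).

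Outside the autosomes, 14 of 17 mitochondrial windows were called higher in F2 ifosfamide and none lower, with a median log2 fold change of 1.18 over the 17. On chromosome X 392 of 19901 tested windows were called (1.97%), 324 higher and 68 lower, a share near the 2.01% called over the autosomes.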

How the results depend on the processing

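Depth limits what can be called in weak windows, and none below 0.1 CPM was tested. With 20944 windows called in the fit described, DESeq2 called 7737 (5256 higher and 2481 lower, with no adjusted p for 646392 windows), the replicate block 12781, the number of windows per read as a covariate 41923 (20473 higher and 21450 lower) and the fit without the 3 intermediate pools 77077. Leaving out 1 pool gave 8118 to 35107. The 9 other alternatives gave 14615 to 22461. Of 218 called 1 Mb bins, the replicate block left 13 (12 higher and 1 lower; 5 higher in the sparsest group, and 2 higher and 0 lower in the densest), while DESeq2 called 495 (199 higher and 296 lower) and the fit without the 3 intermediate pools 429. With 5 Mb bins 80 were called and with 100 kb bins 883. Without isolated windows and windows at or above 10 CPM 169 were called, 58 higher and 111 lower. Leaving out 1 pool gave 50 to 421. Pool numbers did not pair the pools, with 0 of 6 same-numbered correlations over 0.1 and 0 F1 pools closest to their own number. With the replicate block the rise at 3 to below 10 CPM had an adjusted exact sign-flip p of 0.188. With 6 pairs the raw p of this test has a floor, and the adjusted p depends on how many of the 6 classes reach it. The difference in the highest class, 0.0560 percentage points, became -0.0127 with a bound of 30 CPM and -0.0138 without the 3 intermediate pools, and 0.0333 to 0.0925 with 1 pool left out. The number of autosomes that differed was 0 to 2 with 1 pool left out. The difference at chromosome ends was 0.0190 to 0.0297 with 1 pool left out, 0.0109 for 1 Mb and 0.000979 for 5 Mb. The cause of these changes was not tested. The rise in the share of counts in isolated windows passed with a lower and a higher cut-off against the neighbours, with each pool left out and without the 3 intermediate pools. No other alternative was run for that share, the replicate block included.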
